A study of Homo sapiens with 6 samples.

Results

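DNAJB1, an HSP40 co-chaperone, and CRYAB, the small heat shock protein αB-crystallin, are described here in HeyA8 cells, an established human ovarian cancer line, after magnetic fluid hyperthermia (MFH). They are 2 of the 20046 genes that have a named probe among the 47231 probes of an Illumina HumanHT-12 V4 bead array. DNAJB1 was read by probe ILMN_1775304 and CRYAB by probe ILMN_1729216. Both were chosen from the same contrast that is described here, as a co-chaperone already abundant before treatment and a small chaperone near background before treatment. Their own change is therefore given as a description and without a test. The array annotation assigned each probe to its gene, and neither gene had a second probe. MFH uses an alternating magnetic field to make magnetic nanoparticles release heat into the cells that carry them. Total RNA of 3 MFH-treated samples and of 3 untreated samples of parental HeyA8 cells was hybridised, with 1 array per sample. Temperature, duration and time of harvest are not given in the sources used here. Cells with particles alone or the field alone were not analysed here. Separate cultures are not stated for the replicates, and p-values here rest on a spread that may be only technical.

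HSP40 proteins carry a J domain, which stimulates ATP hydrolysis by HSP70 and hands unfolded proteins over to it. DNAJB1 is the heat-inducible cytosolic HSP40 that pairs with the inducible HSP70 proteins and, together with HSP110, serves in the dissolving of protein aggregates. CRYAB works without ATP: it forms large oligomers that hold unfolding proteins until the HSP70 system can refold them. It is abundant in lens and striated muscle, and elsewhere is known as a stress-inducible protein that binds intermediate filaments and actin. Genes of both kinds are classical targets of heat shock factor 1, which binds inverted GAA repeats called heat shock elements.

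The promoter of DNAJB1 was examined for these letters because the rise of the transcript is the measurement described. RefSeq promoter windows of GRCh38.p14, each with 250 bases before and 50 after an annotated start, were searched on both strands for GAANNTTC and TTCNNGAA, the 2-unit forms of the heat shock element, and for its 3-unit forms, in which a further inverted unit follows at the same spacing. A 3-unit match therefore contains both 2-unit forms. DNAJB1 has 3 such windows, of which 2 held a 2-unit match and 0 a 3-unit match. The window at chr19:14518348-14518647 on the minus strand held GAANNTTC at 2 places, beginning 77 and 47 bases before the start, and is printed with the fixed letters in capitals.
DNAJB1: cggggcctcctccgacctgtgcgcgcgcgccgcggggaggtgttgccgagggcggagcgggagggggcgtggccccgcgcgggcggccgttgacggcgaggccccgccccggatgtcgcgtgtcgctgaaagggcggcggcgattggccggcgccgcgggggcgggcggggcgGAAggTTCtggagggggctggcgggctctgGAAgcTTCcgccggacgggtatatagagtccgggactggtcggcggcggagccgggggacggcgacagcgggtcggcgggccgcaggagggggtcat
A second DNAJB1 window, chr19:14517888-14518187, held 1 match, at position 252 of the window. Of all 35116 windows in the table, 13.5% held either 2-unit form and 0.490% either 3-unit form. Windows of 15 genes were searched, DNAJB1 among them, the others being 14 chaperone and co-chaperone genes. In 11 of the 15 at least 1 window held a 2-unit form, in 4 none did, and in 3 (DNAJA1, DNAJB6 and HSPA6) a window held a 3-unit form. Counted by window, 12 of 22 held a 2-unit form, and DNAJB1, DNAJA4, DNAJB4 and HSPA4L have windows both with and without one. For comparison, stretches around the matches are shown for 4 chaperone genes whose transcripts also rose after MFH. All 14 genes were chosen after their values were seen. The stretches lie in the windows chr15:78264312-78264611 for DNAJA4, chr1:78004689-78004988 for DNAJB4, chr7:157336754-157337053 for DNAJB6 and chr7:76302423-76302722 for HSPB1, all on the plus strand.
DNAJA4: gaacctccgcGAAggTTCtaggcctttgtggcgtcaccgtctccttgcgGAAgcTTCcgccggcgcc
DNAJB4: gcatttgctgTTCtaGAAagtacagaga
DNAJB6: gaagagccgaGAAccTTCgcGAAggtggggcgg
HSPB1: cttaacgagaGAAggTTCcagatgaggg
The DNAJB6 stretch held a 3-unit form and the others 2-unit forms only. The windows of BAG3 and HSPH1, which rose as well, held neither form, and neither did those of DNAJA3 and DNAJC9, which fell. A match is a run of letters and not a measured binding site. The windows available here included none for CRYAB, so its promoter was not examined.

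DNAJB1 was bright before treatment and among the brightest probes of the array after it. Its raw bead intensity, on a linear scale without background subtraction, was 19156, 20101 and 23450 in the 3 MFH samples, against 2398, 2079 and 2182 in the 3 untreated samples. The groups lay far apart, and the dimmest MFH value was 7.99 times the brightest untreated value. The mean was 20902 ± 2256 in MFH and 2219 ± 163 in untreated cells (SD, n = 3 each). After normexp background correction, quantile normalisation and log2, the level was 14.10, 14.33 and 14.38 in MFH cells and 11.10, 11.26 and 11.03 in untreated cells. The normalised log2 change was 3.14 ± 0.11 (SE), with a 95% interval from 2.90 to 3.37, which is 8.79-fold. The ratio of raw means was 9.42, and 9.82 after subtraction of the most frequent intensity of each array. Among the 23615 probes tested by limma 12.3% were called at an adjusted p of 0.05, 5.7% higher and 6.58% lower in MFH. DNAJB1 and CRYAB were chosen from this contrast, so nothing is read from their place among these calls. The probe was above background, taken as the most frequent intensity plus 2 SD, on all 6 arrays.

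DNAJB1 also approached the brightest intensity that the arrays recorded. It reached 81.2% to 95.4% of the brightest probe on the MFH arrays and 9.52% to 10.9% on the untreated arrays. Among 47231 probes it stood at place 188, 20 and 9 from the brightest in MFH samples 1 to 3, and at place 2216, 1999 and 2296 in the untreated samples. Probes differ in how bright they bind, so such a place does not rank transcripts by abundance. The files used here carry no saturation flag, and whether the intensity still followed the amount of RNA so near the top of the scale was not tested.

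CRYAB could not be told from background before treatment and was clearly detected after it. Its raw intensity was 2367, 1937 and 1395 in the MFH samples, against 118, 99.4 and 110 in the untreated samples. The background limits were 131, 106 and 129 on the MFH arrays and 118, 107 and 117 on the untreated arrays. CRYAB therefore lay above background on 3 of 3 MFH arrays and on 0 of 3 untreated arrays, with untreated sample 1 just under its limit. The mean raw intensity was 1900 ± 487 in MFH and 109 ± 9.27 in untreated cells (SD, n = 3 each). In place on the array, CRYAB was brighter than 94.6%, 95.3% and 93.0% of the probes in MFH samples and than 55.1%, 42.4% and 46.1% in untreated samples. The normalised log2 level was 10.85, 11.10 and 10.40 in MFH cells and 6.33, 6.18 and 6.22 in untreated cells.

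**Figure D1:**
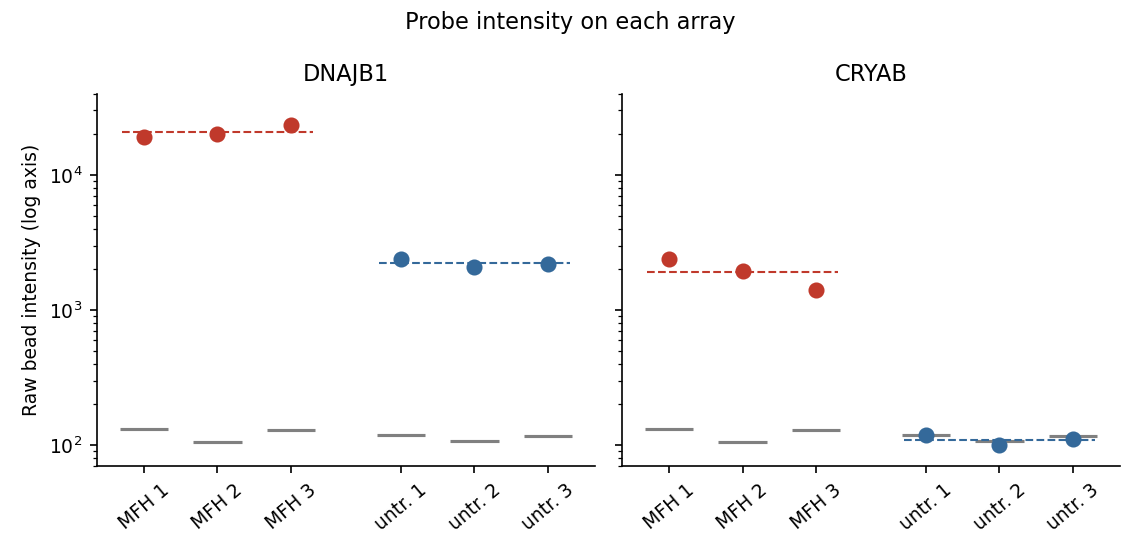
Raw bead intensity (log axis) of DNAJB1 and CRYAB on each array, with MFH samples left of untreated samples; dashed lines give the group mean and short grey lines the background limit of each array. DNAJB1 lies above the limit on all 6 arrays, while CRYAB is at 1395 to 2367 on the MFH arrays and under the limit on the untreated arrays.

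Because the untreated level of CRYAB is only a limit, its change is a lower bound. Setting each untreated array at its lowest normalised level above background gave a CRYAB level at least 21.6-fold higher in MFH than in untreated cells on this normalised scale. The bound belongs to that scale: the ratio of the raw means, which still contain the background, was 17.4. Subtracting the most frequent intensity of each array left almost nothing of the untreated values and gave a ratio of 229, which cannot be read as a fold change. The measured values themselves gave a log2 change of 4.54 ± 0.15 (SE), with a 95% interval from 4.23 to 4.85, or 23.3-fold. The bound was 36.4 with a normexp offset of 16 in place of 50, 15.3 without background correction and 14.0 on the log2 values the authors deposited. The untreated mean of the probe, 6.24 on the normalised log2 scale, was itself close to the limit of the filter on level. The probe of DES, for example, passed that filter with 6.18 in MFH and 6.29 in untreated cells.

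**Figure D2:**
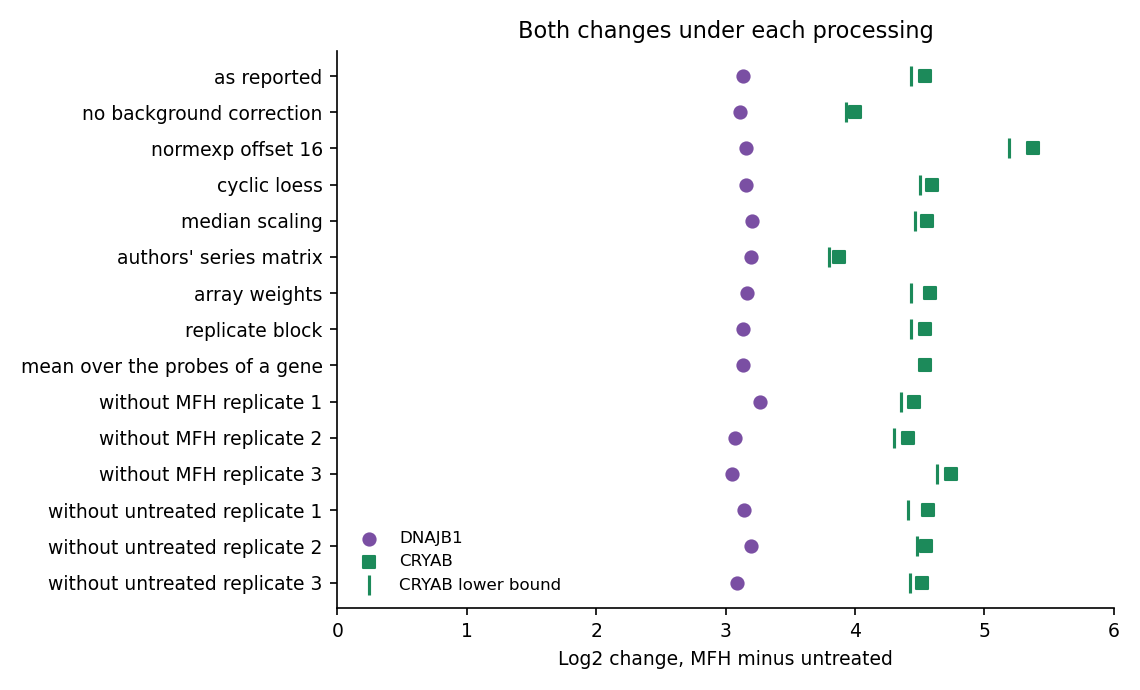
Normalised log2 change (MFH minus untreated) of CRYAB and DNAJB1 as reported (top) and under the 14 alternative settings that give both; vertical ticks mark the lower bound of the CRYAB change where one was computed. DNAJB1 stays between 3.05 and 3.27 while CRYAB runs from 3.87 to 5.37, its lowest value coming from the deposited log2 table and its highest from the smaller offset.

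As reported and in the 14 alternative settings, the CRYAB change was larger than the DNAJB1 change, but the size of that difference depended on how background was handled. The log2 change of CRYAB minus that of DNAJB1 was 1.40 on the measured values, in which the untreated CRYAB level is background. With the bound in its place the CRYAB change was at least 4.44, against 3.14 for DNAJB1. Whether the DNAJB1 change was compressed near the top of the intensity scale was not tested. The CRYAB minus DNAJB1 difference was 2.22 with an offset of 16, 0.89 without background correction and 0.67 on the deposited log2 values. DNAJB1 itself moved little, between 8.28-fold and 9.64-fold. On the authors' deposited log2 table, DNAJB1 averaged 14.12 ± 0.31 in MFH and 10.92 ± 0.11 in untreated cells, and CRYAB averaged 10.60 ± 0.33 in MFH and 6.72 ± 0.052 in untreated cells (SD, n = 3 each). These deposited values are log2 intensities with the same distribution in each column, whose median was 6.733. That distribution is not the mean of these 6 arrays, so what else went into it is unknown.

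Replicate spread was described for each gene without a test. The coefficient of variation of raw intensity was 10.8% in MFH and 7.33% in untreated samples for DNAJB1. For CRYAB it was 25.6% in MFH and 8.50% in untreated samples. The untreated CRYAB values lay under the background limit, so the 8.50% describes background and not the transcript. On the normalised log2 scale, the SD of CRYAB over the MFH samples was 0.35, larger than that of 98.4% of the tested probes, whose median was 0.12. DNAJB1 had an SD of 0.15 there, at the 64.5th percentile. On the deposited log2 values the SD over the MFH samples was 0.31 for DNAJB1 and 0.33 for CRYAB, so the contrast in spread depends on the normalisation. MFH sample 3 had the lowest CRYAB level and the highest DNAJB1 level. Even so, the lowest MFH level exceeded the highest untreated level by 2.83 log2 units for DNAJB1 and by 4.07 for CRYAB. Among all 23615 tested probes 28.7% had groups that did not overlap, 12.8% with MFH higher.

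The transcripts most like each member were found by Euclidean distance over the 6 arrays, after the untreated mean of each probe had been subtracted from its normalised log2 values. No test attaches to this likeness, and it mostly orders probes by the size of their change. For DNAJB1 the nearest were both probes of DNAJB4, another cytosolic HSP40, at distances of 0.23 and 0.43 log2 units. HSPA4L, a nucleotide exchange factor of the HSP110 type, followed at 0.59, then DNAJA4 at 0.83 and ZFAND2A, an arsenite- and heat-inducible zinc finger protein of the proteasome pathway, at 1.09. ZFAND2A differed most on MFH sample 1, where its raw intensity was 4250, against 6540 and 5696 on the other MFH arrays. For CRYAB the nearest was a probe of HSPA6, the strictly inducible HSP70, at 0.97, and the next were DNAJA4 at 1.80, HSPA7 at 2.14, DNAJB4 at 2.22 and a second HSPA6 probe at 2.23. The raw HSPA7 intensity was 13496, 9644 and 8274 in MFH samples and 231, 185 and 208 in untreated samples. HSPA6 and HSPA7 had, like CRYAB, their lowest MFH level on sample 3. HSPA6 and HSPA7 are closely similar in sequence, so their probes may share target RNA.

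**Figure D3:**
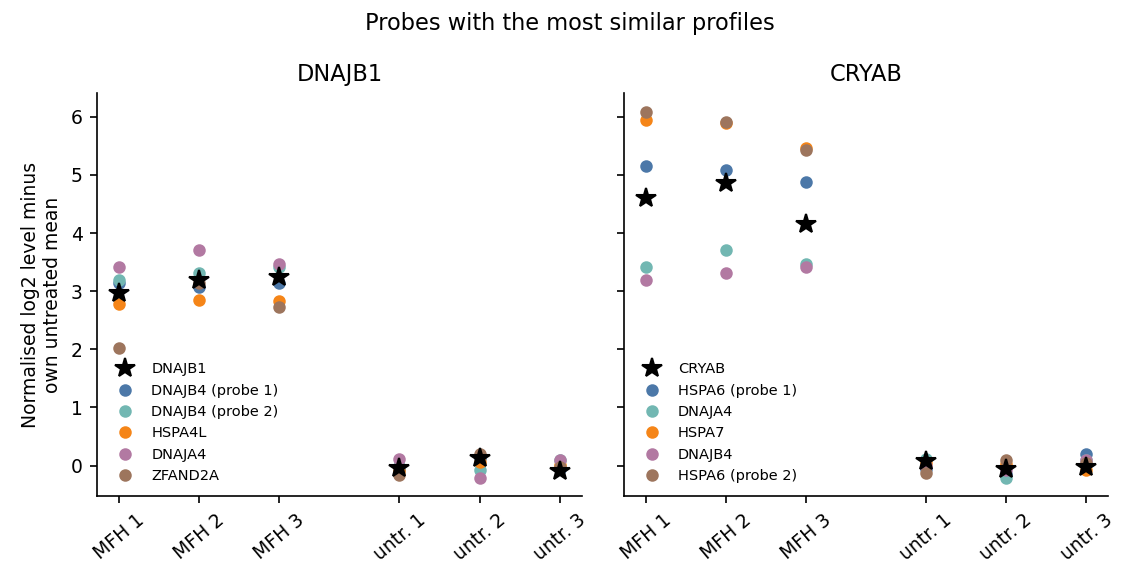
Normalised log2 level minus the untreated mean of the same probe, per array, for each member (star) and the 5 tested probes nearest to it. The DNAJB4 and HSPA4L points lie close to DNAJB1 on all 6 arrays, whereas the points around CRYAB spread above and below it on the MFH arrays.

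The tested genes next to DNAJB1 and CRYAB on the chromosome did not pass the test. DNAJB1 lies at chr19:14514769-14560391 and CRYAB at chr11:111908564-111923740 (GRCh38.p14). TECR, whose annotated span overlaps that of DNAJB1, had a raw intensity of 2310 ± 476 in MFH and 1890 ± 381 in untreated cells (log2 change 0.21, limma adjusted p = 0.22). NDUFB7 changed by 0.19 (adjusted p = 0.25) and PTGER1 by -0.057 (adjusted p = 0.80) on the log2 scale, and GIPC1 had no named probe. Beside CRYAB, CFAP68 had a log2 change of 0.0027 (adjusted p = 0.99) and FDXACB1 of 0.064 (adjusted p = 0.81). HSPB2, a small heat shock protein gene that lies inside the annotated span of CRYAB, was at 115 ± 16.8 in MFH and 101 ± 3.42 in untreated cells and above background on 0 of 6 arrays. C11orf52, which overlaps the end of that span, was likewise above background on 0 arrays. Neither was tested.

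In the rest of the HSP40 family, a few members rose with DNAJB1 and most did not pass the test. Each gene is represented by its brightest probe. Of 46 family members other than DNAJB1, 45 had a probe, 39 were tested, 8 rose, 3 fell and 28 did not pass. Among all 12596 genes tested, 15.7% were called at a limma adjusted p of 0.05, 6.2% higher and 9.49% lower. In the family the shares were 20.5% higher and 7.69% lower, with a median log2 change of 0.036, against -0.027 over all genes. By class, 4 of 8 tested DNAJB genes rose and 0 fell (0 also at an unadjusted limma p under 0.05). Of 4 DNAJA genes 2 rose and 1 fell, and of 24 genes with a DNAJC symbol 2 rose and 1 fell. The third gene that fell, GAK, is also a DNAJC protein, under another symbol. The count by symbol left it out, together with HSCB and SEC63, which did not pass.

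DNAJA4 and DNAJB4 showed the largest rises among the other tested HSP40 genes. DNAJA4, a type I HSP40, had raw intensities of 3654, 3244 and 3116 in MFH samples and 362, 232 and 342 in untreated samples (log2 change 3.53 ± 0.12 SE, adjusted p = 1.09e-10). DNAJB4 had 3519, 2736 and 3364 in MFH samples and 370, 278 and 378 in untreated samples (log2 change 3.31 ± 0.10 SE, adjusted p = 5.75e-11). In both genes the groups did not overlap. The changes were 11.6-fold for DNAJA4 and 9.93-fold for DNAJB4, and the second DNAJB4 probe changed 8.69-fold.

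Smaller rises were found in DNAJA1, DNAJB6 and 4 further genes. DNAJA1, the main cytosolic type I HSP40, averaged 15472 ± 2470 in MFH and 5920 ± 1300 in untreated cells, a 2.44-fold rise. DNAJB6, which suppresses aggregation of polyglutamine proteins, averaged 3113 ± 686 in MFH and 1256 ± 26.6 in untreated cells, a 2.35-fold rise that its second probe also showed. DNAJC24, a J protein of diphthamide synthesis, rose by 0.89 on the log2 scale, DNAJB2, a neuronal HSP40 that sorts clients for the proteasome, by 0.71, DNAJB14, an endoplasmic reticulum membrane HSP40, by 0.49 and DNAJC7, which bridges HSP70 and HSP90, by 0.37. DNAJC24, DNAJB14 and DNAJC7 were named after their values were seen.

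Among the HSP40 genes that did not pass the test were DNAJB9, DNAJB11 and DNAJB5. DNAJB9, an endoplasmic reticulum co-chaperone of the HSP70 protein BiP, averaged 473 ± 41.6 in MFH and 384 ± 16.4 in untreated cells (log2 change 0.29, adjusted p = 0.21). Without MFH replicate 1 the change was 0.45 and passed (adjusted p = 0.025). DNAJB11, of the same compartment, changed by -0.079 (adjusted p = 0.72), and DNAJB5 by 0.063 (adjusted p = 0.78). The 3 genes that fell, named after their values were seen, were the mitochondrial DNAJA3 (log2 change -0.34), the clathrin-uncoating kinase GAK (-0.36) and the histone chaperone DNAJC9 (-0.37). With median scaling in place of quantile normalisation, the other members of the family called were DNAJA1, DNAJA4, DNAJB4, DNAJB6 and DNAJC24, all higher. DNAJA3, GAK and DNAJC9 then had adjusted p-values of 0.33, 0.27 and 0.34, and DNAJB2 of 0.074. With 1 array left out, the log2 change of the genes that fell stayed between -0.31 and -0.40, while several calls were lost. DNAJA3 lost its call when any array other than MFH replicate 3 was left out (adjusted p = 0.066 to 0.12). GAK lost it when any array other than untreated replicate 2 was left out (adjusted p = 0.0505 to 0.086). DNAJC9 lost it without MFH replicate 2 (adjusted p = 0.065), untreated replicate 1 (0.055) or untreated replicate 3 (0.065).

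**Figure D4:**
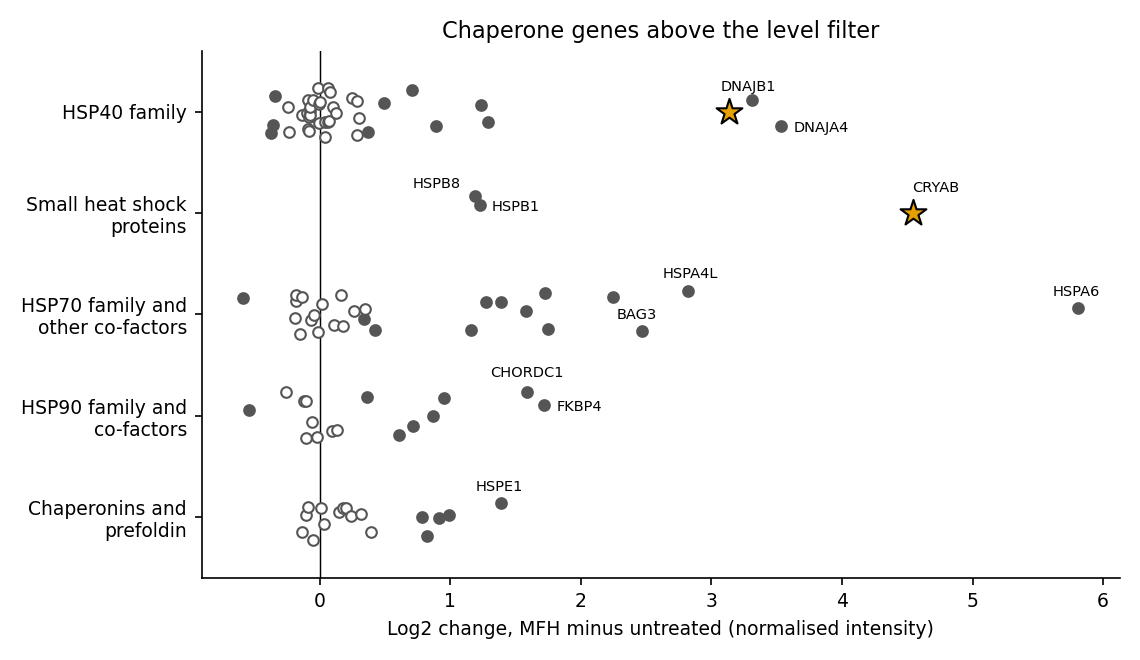
Normalised log2 change (MFH minus untreated) of every tested gene in 5 chaperone lists; filled points passed a limma adjusted p of 0.05, open points did not, and stars mark DNAJB1 and CRYAB, which carry no test. Next to DNAJB1 stand DNAJB4 (unlabelled) and DNAJA4, most other HSP40 genes lie near 0, and only 3 small heat shock proteins were bright enough to be tested.

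Among the small heat shock proteins, HSPB1 and HSPB8 were the other genes bright enough to be tested, and both were called higher. Of the 10 family members 7 were not tested, since their probes were too dim, and 6 were above background on no array. HSPB1, or HSP27, a widely expressed partner of CRYAB in mixed oligomers, had raw intensities of 17719, 16739 and 18265 in MFH samples and 7848, 5387 and 7417 in untreated samples. Its groups did not overlap, and it rose 2.33-fold (log2 change 1.22 ± 0.10 SE, adjusted p = 2.67e-06). HSPB8, which acts with BAG3 in autophagy, was at 211, 161 and 183 in MFH samples and 100.3, 88.9 and 98.1 in untreated samples. It was above background on 3 of 3 MFH arrays and on 0 of 3 untreated arrays. Its normalised level is therefore given only as at least 1.74-fold higher in MFH. HSPB8 passed the filter on level through its MFH arrays only. That filter set the direction of its change and favoured a call, so the count of 2 of 2 is no measure of the family. CRYAA, the lens partner of CRYAB, was above background on 0 of 6 arrays.

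DNAJB1 works within the HSP70 system. Of 27 tested genes of the HSP70 family and its co-factors other than J proteins, 12 rose, 1 fell and 14 did not pass, with a median log2 change of 0.26. Over all genes 6.2% were called higher and 9.49% lower, with a median of -0.027. HSPA6 had the largest change of this list, 5.81 ± 0.15 SE on the log2 scale (adjusted p = 3.99e-12). HSPA1B rose 3.35-fold and HSPA1A 2.98-fold, but these genes are near-identical copies whose probes may not tell them apart. HSPA4L rose 7.06-fold, HSPA1L 4.74-fold and HSPH1, the HSP110 protein that works with DNAJB1 and HSP70 on aggregates, 3.30-fold. The HSPA1L replicates spread widely, with raw intensities of 1184, 472 and 457 in MFH samples and 152, 147 and 161 in untreated samples. BAG3, which binds HSP70 together with small heat shock proteins, averaged 16776 ± 1751 in MFH and 2772 ± 326 in untreated cells, a 5.52-fold rise (adjusted p = 1.11e-09). On the MFH arrays the probes of HSPA6, HSPA1A, HSPA1B, HSPH1 and BAG3 reached up to 94.4%, 77.1%, 85.3%, 88.8% and 75.2% of the brightest intensity. Those of HSPB1 and DNAJA1 reached up to 75.1% and 77.7%. Whether such brightness compressed the changes of these genes was not tested. BAG4, named after its value was seen, was the gene that fell (log2 change -0.59, adjusted p = 0.020). Its call was lost without MFH replicate 3 (adjusted p = 0.080) and without untreated replicate 2 (0.092) or 3 (0.060).

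HSPA8, the constitutive HSP70, did not pass the test, with a log2 change of 0.11 (95% interval -0.11 to 0.33, adjusted p = 0.59). Its probe stood at 76.6% to 92.4% of the brightest intensity on the MFH arrays and at 73.0% to 87.1% on the untreated arrays. The part of this brightness in the small change was not tested.

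The HSP90 list showed 7 of 16 tested genes higher, 1 lower and 8 not past the test, with a median log2 change of 0.11, where 6.2% of all genes were called higher and 9.49% lower. The immunophilin FKBP4 rose 3.29-fold, the HSP90 co-chaperone CHORDC1 3.01-fold, STIP1, which links HSP70 to HSP90, 1.94-fold, and SUGT1 1.82-fold. FKBP5, named after its value was seen, fell by 0.55 on the log2 scale (adjusted p = 0.0025, and 0.051 with median scaling). HSP90AA1, the inducible cytosolic HSP90, changed by 0.13 (95% interval -0.084 to 0.34, adjusted p = 0.49). Its probe was at 89.4% to 99.6% of the brightest intensity in MFH and 82.1% to 86.2% in untreated samples. Of 17 chaperonin and prefoldin genes 5 rose and 0 fell by limma (0 lower also at an unadjusted p under 0.05), with a median log2 change of 0.20, beside the same shares over all genes. HSPE1, the mitochondrial co-chaperonin, rose 2.62-fold, and the cytosolic chaperonin subunits CCT5, CCT6A, TCP1 and CCT4 rose 1.98-, 1.88-, 1.77- and 1.72-fold. HSPD1 counts here as not past the test by its brightest probe, while dimmer probes of it were called higher.

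The regulators of the heat shock response showed small differences at the RNA level. HSF1 averaged 264 ± 60.2 in MFH and 320 ± 48.2 in untreated cells and did not pass (log2 change -0.41, adjusted p = 0.056). Without MFH replicate 3 it did, at -0.54 (adjusted p = 0.015), and without untreated replicate 1 at -0.50 (adjusted p = 0.040). It also passed with array weights (-0.43, adjusted p = 0.038). HSBP1, a binding protein of HSF1, rose by 0.54 (adjusted p = 0.0080), and had an adjusted p of 0.065 with median scaling. HSF2 had no named probe. HSF4 did not pass the test and HSF5 was too dim for it.

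Genes of filaments and of the autophagy route in which CRYAB and its relatives take part mostly did not pass the test. Of 10 tested genes 2 rose, 1 fell and 7 did not pass, with a median log2 change of -0.049. Those that rose were BAG3 and HSPB8, already described, of which HSPB8 was tested only because of its MFH level. Over all genes 6.2% were called higher and 9.49% lower, so 1 fall in 10 is near the background. The autophagy receptor SQSTM1 averaged 6876 ± 610 in MFH and 8823 ± 879 in untreated cells (log2 change -0.51, adjusted p = 0.015). Its call was lost without MFH replicate 1 (adjusted p = 0.054) and without untreated replicate 2 (0.059) or 3 (0.053). The intermediate filament gene VIM averaged 17697 ± 1444 in MFH and 15824 ± 1664 in untreated cells (log2 change 0.014, adjusted p = 0.96).

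The cells were checked against marker lists. Mesenchymal markers gave 0 calls among 4 tested genes by limma, and 0 at an unadjusted p under 0.05. Of these, VIM and CDH2 were bright in both groups. FN1 and ZEB1 were above background on all 6 arrays but dim. Their raw means were 235 and 196 in MFH and 194 and 198 in untreated cells. Among epithelial markers KRT8 was detected on all arrays, at 2940 ± 404 in MFH and 3448 ± 289 in untreated cells (log2 change -0.34, adjusted p = 0.038), a call lost in all 6 analyses with 1 array left out (adjusted p = 0.052 to 0.13). KRT18, KRT19 and EPCAM were also above background on all 6 arrays, though dim. Their raw means were 259, 193 and 133 in MFH and 227, 181 and 123 in untreated cells. CDH1 was above background on 0 of 6 arrays. Lists for striated muscle and lens, the tissues best known for CRYAB, and for glia, leukocytes and endothelium had 21 genes with a probe. Of these 10 were above background on no array and 3 (CRYBB2, MBP and CDH5) on all 6. By limma 0 were called, and 1 was past an unadjusted p of 0.05, the leukocyte gene CD14 (log2 change 0.55, adjusted p = 0.054). Their summed raw intensity was 2387 to 3197 on MFH arrays and 2349 to 2696 on untreated arrays. The defining genes CRYAA, DES and GFAP stayed near background in both groups. In these bulk samples, a change in the share of cells that express a gene and a change in RNA per cell cannot be told apart.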

How the data were processed

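Raw values are average bead intensities, exported with BeadStudio (version not given in these sources) per the submitters' processing notes and not normalized per the file headers. The log2 table deposited by the authors served as an alternative. Intensities were background-corrected (normexp, offset 50), quantile normalised and put on the log2 scale in limma 3.58.1 (R 4.3.3). Only probes whose mean log2 level exceeded the median of all probes were tested (23615 of 47231), with group as the only term, eBayes and Benjamini-Hochberg adjustment at 0.05 over all of them. Fold changes are MFH over untreated. The normexp offset draws fold changes of dim probes towards 1. The number of arrays, 6, limits precision.

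Genes come from the platform annotation: 30113 probes had 1 symbol, 8 several and 17110 none, and 30074 were matched to RefSeq by Entrez identifier, with 0 symbols changed. Promoters are from RefSeq. The members, gene lists and tests were chosen with earlier results of these data known. Named genes were the members, the 4 called genes of largest change per list whose groups did not overlap, a set list of chaperone genes, the 5 probes most like each member and chromosomal neighbours. Other names were chosen after their values were seen, as stated. Groups and replicate numbers follow the sample titles. The labels name no batch. The fit was tested on simulated data. Alternatives varied background correction, normalisation, filter, variance model, weights, threshold, probe choice and the arrays included.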

Additional observations from a re-analysis of the deposited data

How the results depend on the processing

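The DNAJB1 log2 change lay between 3.05 and 3.27 in the 14 alternatives that gave one. With 1 array left out it ran from 3.05 to 3.27, the CRYAB change from 4.41 to 4.74 and their difference from 1.19 to 1.69. The CRYAB change was 4.004 without background correction, 5.37 with an offset of 16 and 3.87 on the deposited log2 values, and its difference from DNAJB1 was 0.89, 2.22 and 0.67 in these settings, in which the background added to a dim probe differs by construction. Median scaling called 1030 probes in place of 2902, and an adjusted p of 0.01 called 1479. Counts of HSP40 genes and of small heat shock proteins given here include DNAJB1 and CRYAB, which were chosen from this contrast. Median scaling called 6 HSP40 genes in place of 12, and 0 of the heat shock factors by limma (2 at an unadjusted p under 0.05); the cause was not tested. Array weights, the replicate block, the mean over the probes of a gene and leaving out MFH replicate 3 or untreated replicate 1 each called 2 heat shock factors, HSF1 being the second. With 1 array left out, the counts of calls ran from 1995 to 2589 for all probes, 8 to 11 for HSP40 genes, 10 to 13 for HSP70 genes, 7 to 8 for HSP90 genes, 5 to 6 for chaperonins, 1 to 2 for heat shock factors and 2 to 3 for filament and autophagy genes, and stayed at 3 for small heat shock proteins. Same-numbered arrays did not deviate together (correlations 0.0039, 0.060 and -0.036), so no pairing by number was seen. With 3 arrays per group these correlations cannot exclude a pairing. The replicate block, with pairing by number, called 2870 probes, 2710 of them shared with the fit without it. No setting turned a call into a call of the opposite direction. The sign of changes near 0, such as 0.0027 for CFAP68, is not covered by that statement. Of 720 comparisons for 40 named genes, 663 kept their side of the threshold, 50 lost a call and 7 gained one. DNAJA3, GAK, DNAJC9, BAG4, KRT8 and SQSTM1 account for most of the losses. The untreated CRYAB level, at background, is what limits its fold change.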

Other observations

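Probes of one chaperone gene disagreed in some cases, and the calls in the text rest on the brightest probe of each gene. The brightest probe of HSPD1, the mitochondrial HSP60, averaged 17701 ± 2920 in MFH and 14046 ± 1089 in untreated cells (log2 change 0.18, limma adjusted p = 0.32). It stood at 64.4% to 82.8% of the brightest intensity on the MFH arrays and at 63.3% to 67.1% on the untreated arrays. The part of this brightness in its small change was not tested. A dimmer probe averaged 13630 ± 2499 in MFH and 4804 ± 1307 in untreated cells, and rose by 1.41 (adjusted p = 4.01e-06). Another rose by 1.73, at 511 ± 96.1 in MFH and 178 ± 50.1 in untreated cells (adjusted p = 7.90e-06). For DNAJB12, an HSP40 of the endoplasmic reticulum membrane, the brightest probe changed by -0.088 (adjusted p = 0.70) while another rose by 0.39 (adjusted p = 0.018). DNAJB1 and CRYAB have 1 probe each, so this check could not be made for them.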
